A study of Mus musculus with 6 samples.

Results

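Death receptors are members of the TNF receptor family that start cell death from the cell surface, and 10 mouse genes for such receptors, for related TNF receptor family members and for death-domain adaptors and their partners were compared here between cells with and without an inactivated p53 gene. They were the 10 rows, of 23420 in the deposited count table, that carry the symbols Fas, Tnfrsf10b, Eda2r, Tnfrsf1a, Tnfrsf12a, Tnfrsf21, Lrdd, Fadd, Ripk1 and Casp8. Lrdd is the older symbol of Pidd1. Of these, 6 are receptors and 4 are intracellular adaptors, kinases or proteases. Expression was measured by RNA sequencing in mouse embryonic fibroblasts, and all libraries share the adenoviral oncogene E1A, the activated Ras allele HrasG12V, a mixed 129/Sv-C57BL/6 background and growth at 5% oxygen with 24 h of recovery before harvest. Each of 3 lines gave a library with the guide sgp53(1), which targets the p53 gene, and a library with the guide sgNTC, labelled p53 wild-type. By the labels, p53 is null in the sgp53 cells of lines 1 and 3, and in line 2 it is functionally inactive. The labels do not say whether a line is 1 clone or a pool, nor whether the lines came from separate embryos, and the library names give lines 2 and 3 the same leading number and line 1 another, so the p-values measure the spread between these lines only.

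Ligand binding brings death receptors such as FAS, the TRAIL receptor encoded by Tnfrsf10b and TNF receptor 1 encoded by Tnfrsf1a together at the membrane, where their cytoplasmic death domains recruit adaptors. FADD bridges the receptor to procaspase-8, whose activation begins the caspase cascade, while RIPK1 can pass the signal to NF-kappaB, to caspase-8 or to necroptosis. PIDD1 carries a death domain but sits in the cytoplasm and nucleus, where it joins CRADD and caspase-2 in the PIDDosome. Fas, Tnfrsf10b, Eda2r and Pidd1 are known as genes that p53 activates, Eda2r chiefly from work on human cells.

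Library totals lay between 29564516 and 35860866 counts in sgp53 and between 27503577 and 32536641 counts in sgNTC. The targeted gene, Trp53, had 71.1, 72.0 and 113 CPM (counts scaled to a common normalized library total) in sgp53 lines 1, 2 and 3, against 206, 277 and 253 CPM in the sgNTC libraries of the same lines. Its log2 fold change was -1.52 (edgeR adjusted p = 0.0168). The p53 targets Cdkn1a and Mdm2 were called lower as well, with log2 fold changes of -3.01 and -2.73. Leaving out 1 library lost the Trp53 call for sgp53 line 1 (edgeR adjusted p = 0.0679), sgp53 line 2 (0.0507) and sgNTC line 3 (0.0721), and leaving out a whole line lost it for each line (0.0731 to 0.112). The sgp53 library of line 3 stood apart by 3338 CPM of the ribosomal RNA precursor Rn45s, against 636 to 864 CPM in the other 5. It also stood apart in the fibroblast markers Thy1 (53.9 CPM, against 0.240 to 4.30 in the other 5), S100a4 (99.4, against 1.74 to 15.8) and Pdgfra (131, against 12.9 to 29.7). In Vim it did not (3001 CPM, against 2502 to 3354). Each of the 11 fibroblast markers of the list had at least 1 count. Their summed levels were 6979 to 9799 CPM in sgp53 and 5542 to 6617 CPM in sgNTC. Most of each sum came from Vim and Fn1. Vim had 2502 to 3001 CPM in sgp53 and 2754 to 3354 CPM in sgNTC. Fn1 had 3887 to 4418 CPM in sgp53 and 2220 to 3416 CPM in sgNTC. Thy1 and Dcn were low in sgNTC, with 0.240 to 4.06 and 0.0677 to 0.421 CPM. The sums alone therefore do not establish the cell type. Of the 11 markers, 10 were tested. Col1a1, Col1a2 and Col3a1 were called higher in sgp53, and 7 were not called. Of the 10 log2 fold changes 9 were positive, with a median of 3.56 over the 10. The 1 negative was that of Vim (-0.22, not called). The collagen gene Col1a1 had 221 to 744 CPM in sgp53 and 5.18 to 12.6 CPM in sgNTC, and the proteoglycan gene Lum had 1 count over all 6 libraries. Of 6 epithelial markers, 4 were tested and 1, the keratin gene Krt18, was called lower. Epcam, Krt8 and Cdh1 were not called, with log2 fold changes of -1.17 (edgeR adjusted p = 0.0528), -0.77 and 0.097. Krt5 had no count. Their summed level was 88.7 to 132 CPM in sgp53 and 259 to 646 CPM in sgNTC, most of it in sgNTC from Krt18, with 47.4 to 93.3 CPM in sgp53 and 185 to 542 CPM in sgNTC. Immune markers summed to 3.86 to 4.31 CPM in sgp53 and 8.96 to 10.5 CPM in sgNTC, of which Cd68 was called lower, and Emr1 and Cd3e were among those with no count. Endothelial markers summed to 1.64 to 1.82 CPM in sgp53 and 1.96 to 2.68 CPM in sgNTC. The part of these shifts in the results was not tested, and in bulk RNA fewer cells of a type and less RNA per cell cannot be told apart.

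Of the 10 genes, 4 were lower in sgp53 and 0 were higher at an adjusted p under 0.05, where 3.69% of all 13044 tested genes were called lower and 2.76% higher. The 4 were the receptors Fas, Tnfrsf10b and Eda2r and the adaptor gene Lrdd. The remaining 6 (Tnfrsf1a, Tnfrsf12a, Tnfrsf21, Fadd, Ripk1 and Casp8) did not pass, with log2 fold changes between -0.37 and 0.23. At an unadjusted p under 0.05, 5 of the 10 passed, the fifth being Casp8, against 29% of all tested genes. DESeq2 called the same 5, all lower, where it called 9% of 13029 genes lower and 18.2% in either direction. The median log2 fold change of the 10 was -0.29, against -0.01 over all tested genes. Counted in either direction, 6.45% of the tested genes were called. For 6 of the 10 genes every sgp53 library lay on 1 side of every sgNTC library, which held for 36.8% of the tested genes, and 7 of the 10 had lower values in every line, against 27%. With the line as a block 3 of the 10 were called lower, against 1.42% of the tested genes. The 10 were chosen with earlier results of these data known, so these shares describe the 10 and test no excess.

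**Figure D1:**
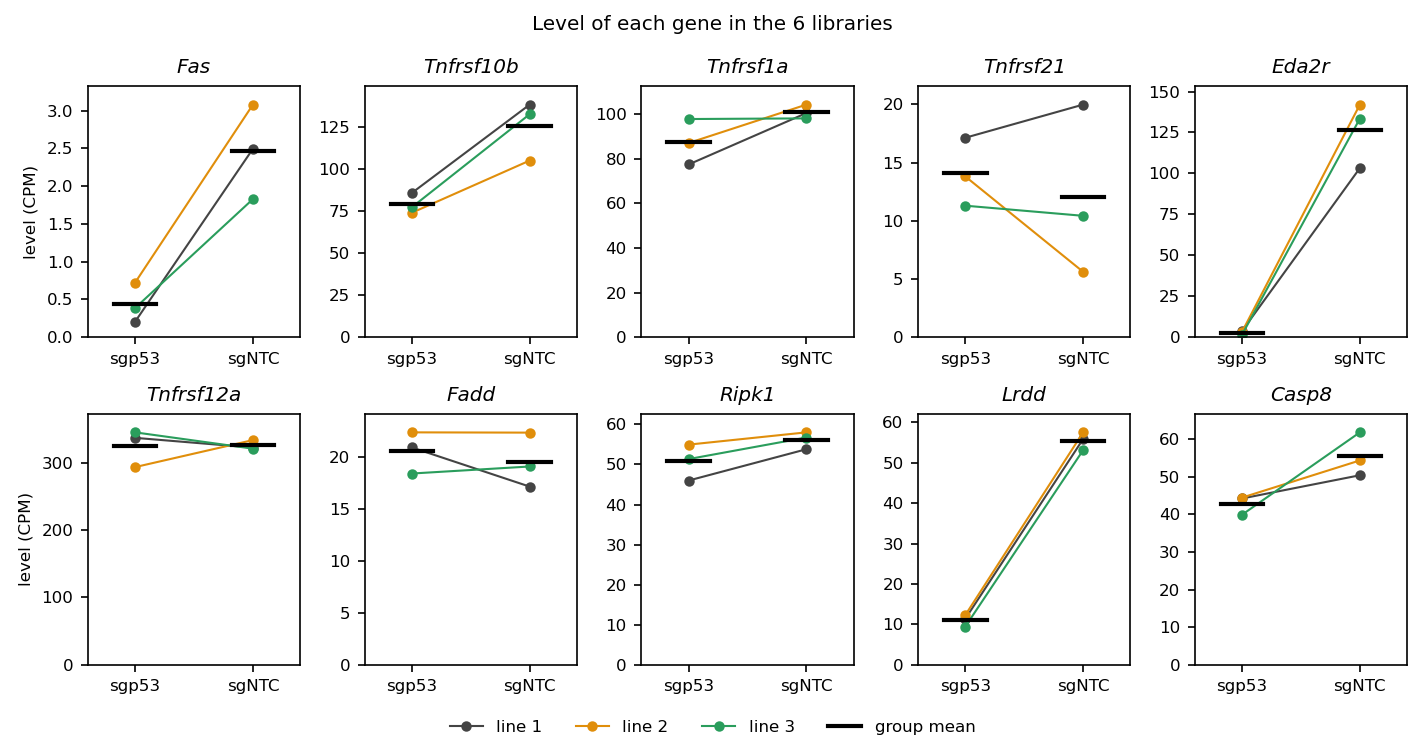
Level of each of the 10 genes in CPM (vertical axes, linear from 0, a scale for each gene) in the sgp53 and sgNTC libraries; thin lines join the libraries of a cell line and thick bars are means of 3. Eda2r and Lrdd separate widely in all 3 lines, Fas does so at a level under 3.1 CPM, and Tnfrsf12a, Fadd and Tnfrsf21 overlap between the groups.

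Gene positions are those of GENCODE vM21 on GRCm38. Eda2r (chromosome X, 97333840 to 97377216, minus strand) encodes a receptor without a death domain that binds the A2 form of ectodysplasin and signals through TRAF proteins. It had 3.79, 3.22 and 1.51 CPM in sgp53 lines 1, 2 and 3, against 103, 142 and 133 CPM in the sgNTC libraries. The highest sgp53 library stood far below the lowest sgNTC library. The fitted level in sgp53 was 2.27% of that in sgNTC, or -5.46 as a log2 fold change with an SE of 0.32 (edgeR adjusted p = 0.00138). This was the largest change among the 10 genes, and it ranked 8 by size of fall among the 13044 tested genes. The difference within lines 1, 2 and 3 was -4.74, -5.43 and -6.41 on the log2 scale, so that the line with the least Eda2r left was line 3, whose sgp53 library has the high Rn45s level. Without sgp53 line 3 the log2 fold change was -5.17 (edgeR adjusted p = 0.00215).

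Lrdd (chromosome 7, 141438113 to 141444025, minus strand), the gene of PIDD1, had 11.4, 12.3 and 9.48 CPM in sgp53 lines 1, 2 and 3. In sgNTC the levels were 55.8, 57.5 and 53.1 CPM. The spread within each group was narrow, with a coefficient of variation of 13.1% in sgp53 and 4.01% in sgNTC, and the groups lay far apart. The log2 fold change was -2.32 (SE 0.11, edgeR adjusted p = 0.000767), which leaves 19.98% of the sgNTC level, and the 3 lines gave -2.28, -2.22 and -2.48. The calls of Eda2r and Lrdd were kept under all 14 alternatives.

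Fas (chromosome 19, 34290666 to 34327772, plus strand), the receptor of FAS ligand, was a rare transcript in both groups. It had 6, 26 and 11 counts in sgp53 lines 1, 2 and 3, against 83, 85 and 54 counts in sgNTC. In CPM these are 0.205, 0.723 and 0.386 in sgp53 and 2.49, 3.08 and 1.83 in sgNTC. Every sgp53 library was below every sgNTC library, and the highest sgp53 value was that of line 2, the line labelled functionally inactive. The log2 fold change was -2.46 (SE 0.48, edgeR adjusted p = 0.0372), or 18.1% of the sgNTC level, with a wide 95% interval of the fold, 0.0821 to 0.400. In sgp53, 2 of 3 libraries reached the count filter, so Fas entered the test through its sgNTC libraries. The Fas call was lost with the line as a block (edgeR adjusted p = 0.0629). Leaving out any 1 library other than sgp53 line 2 lost it as well (edgeR adjusted p of 0.0923 and 0.102 without sgp53 lines 1 and 3, and 0.0642, 0.0944 and 0.0957 without sgNTC lines 1, 2 and 3).

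Tnfrsf10b (chromosome 14, 69767472 to 69784411, plus strand) encodes the mouse TRAIL receptor with a death domain. The table carries a second name for each row, and for this one it is TNFRSF10A, the symbol of another human TRAIL receptor. Its level was 85.9, 74.1 and 77.3 CPM in sgp53 lines 1, 2 and 3 and 138, 105 and 133 CPM in sgNTC. The groups did not overlap, but the gap was small beside those of Eda2r and Lrdd. The log2 fold change was -0.67 (SE 0.12, edgeR adjusted p = 0.0295), which is 63.0% of the sgNTC level, with differences of -0.69, -0.51 and -0.78 in the 3 lines. Tnfrsf10b was no longer called without sgp53 line 1, 2 or 3 (edgeR adjusted p = 0.0807, 0.0759 and 0.0834) or without sgNTC line 1 or 3 (0.0542 and 0.109). Its call was kept with the line as a block.

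**Figure D2:**
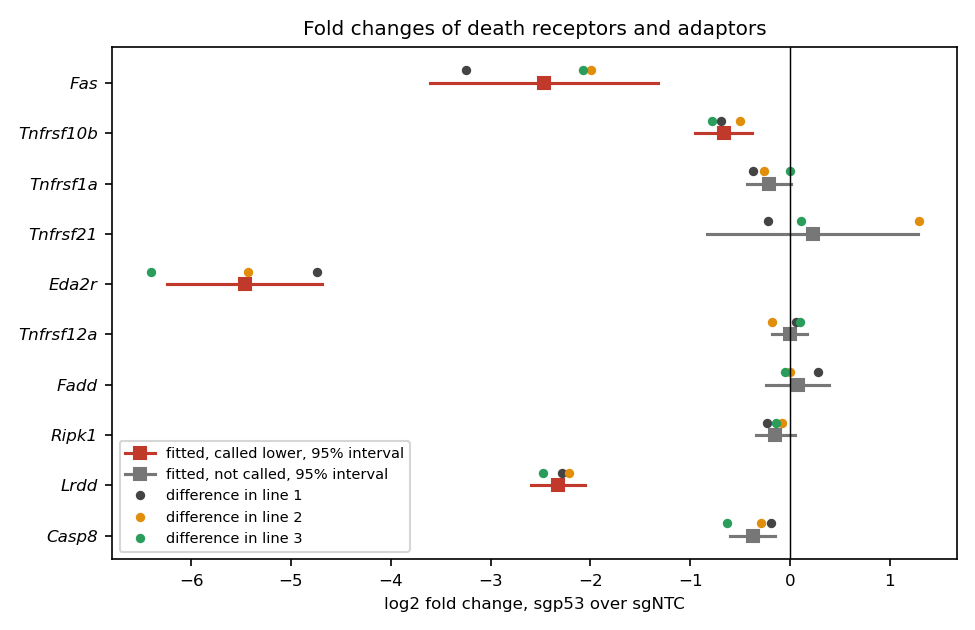
Log2 fold change of sgp53 over sgNTC for the 10 genes (horizontal axis); squares are fitted values with 95% intervals and small points are the differences within each line. Eda2r lies between -6.41 and -4.74 in the 3 lines, and the intervals of Tnfrsf1a, Tnfrsf21, Tnfrsf12a, Fadd and Ripk1 include 0.

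Promoter sequence was read to see what the windows of the changed genes hold. RefSeq promoter windows (GRCm38.p6, from 250 bases before to 50 bases after a start) were found for 9 of the 10 genes (all but Tnfrsf10b), in 10 windows, since Ripk1 has 2. The windows of 3 genes that were lower in sgp53 are shown with that of Tnfrsf12a, which was not called, as the 250 bases before the start, 5′ to 3′ on the gene's strand. They are chr19:34290409-34290658 (plus strand) for Fas, chr7:141444026-141444275 (minus strand) for Lrdd, chrX:97377210-97377459 (minus strand) for Eda2r and chr17:23677450-23677699 (minus strand) for Tnfrsf12a. Capitals mark GGGCGG, a GC box, on either strand (CCGCCC on the other strand), and TATAAA.
Fas: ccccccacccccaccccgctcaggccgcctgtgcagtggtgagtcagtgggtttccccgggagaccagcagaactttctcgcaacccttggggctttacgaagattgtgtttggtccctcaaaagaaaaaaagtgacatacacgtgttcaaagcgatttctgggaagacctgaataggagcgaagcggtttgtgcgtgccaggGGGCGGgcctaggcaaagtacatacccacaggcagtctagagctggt
Lrdd: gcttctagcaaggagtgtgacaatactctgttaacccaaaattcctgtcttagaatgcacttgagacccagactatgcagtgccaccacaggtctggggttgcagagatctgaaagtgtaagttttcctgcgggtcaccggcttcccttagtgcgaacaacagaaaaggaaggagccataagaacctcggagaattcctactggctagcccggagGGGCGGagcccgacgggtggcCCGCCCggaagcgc
Eda2r: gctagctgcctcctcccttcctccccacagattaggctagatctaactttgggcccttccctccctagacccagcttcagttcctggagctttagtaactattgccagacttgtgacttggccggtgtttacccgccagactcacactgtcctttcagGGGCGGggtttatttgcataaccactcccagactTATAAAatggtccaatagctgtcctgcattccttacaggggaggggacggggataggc
Tnfrsf12a: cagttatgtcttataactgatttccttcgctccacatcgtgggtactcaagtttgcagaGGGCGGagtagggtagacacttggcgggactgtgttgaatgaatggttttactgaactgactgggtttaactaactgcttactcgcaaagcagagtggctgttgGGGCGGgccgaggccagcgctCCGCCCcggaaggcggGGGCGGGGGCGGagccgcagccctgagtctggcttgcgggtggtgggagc
An exact p53 half-site of 10 bases was found in 0 of the 10 windows, against 8.36% of all 32851 promoter windows. A full p53 site (2 half-sites with intact cores, at most 13 bases apart and at most 2 mismatches in all) was found in 0 windows, against 2.12%. The NF-kappaB motif of 10 bases, on both strands, was also found in 0, against 8.46%. GGGCGG on either strand was in 8 of the 10 windows, both Ripk1 windows included, against 35.7% of all windows. It was in genes that were called and in genes that were not. The set of all windows was neither limited to genes tested here nor matched for CpG content, so these shares compare unlike sets. There were 5 matches for Tnfrsf12a, 2 of them adjacent. Fas had 2, of which 1 lies after the start and is not shown. Lrdd had 2 and Eda2r 1, while Casp8 and Tnfrsf1a had 0. The windows of Casp8 (58802252 to 58802551) and Tnfrsf1a (125349473 to 125349772) lie inside the GENCODE genes, which start at 58795374 and 125349362. What these windows lack therefore concerns the RefSeq starts only. The Eda2r window alone of the 10 held TATAAA, 58 bases before the start, against 13.6% of all windows, and the motifs did not overlap. Its ratio of observed to expected CpG was 0.264, the lowest of the 10, against 0.536 for Fas, 0.687 for Lrdd and a median of 0.384 over all windows. A match is no binding site, and the absence of one concerns only these windows.

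The other receptors did not pass the test. Tnfrsf1a (chromosome 6, 125349362 to 125362484), the main receptor of TNF, had 77.4, 87.0 and 97.8 CPM in sgp53 and 100.5, 104 and 98.1 CPM in sgNTC. The groups came close but did not overlap, and the difference within line 3 was -0.0043 on the log2 scale. Its log2 fold change was -0.21 (95% interval -0.43 to 0.01, edgeR adjusted p = 0.19). Tnfrsf12a (chromosome 17, 23675445 to 23677468) encodes Fn14, the receptor of the cytokine TWEAK, and has no death domain. It was abundant in both groups, with 337, 293 and 345 CPM in sgp53 against 322, 333 and 321 CPM in sgNTC, and the 95% interval of its fold was 0.885 to 1.13. Tnfrsf21 (chromosome 17, 43016555 to 43089189), death receptor 6, varied more between lines than between guides. It had 17.1, 13.8 and 11.3 CPM in sgp53 lines 1, 2 and 3 and 19.99, 5.62 and 10.4 CPM in sgNTC. Within sgNTC, line 1 was 3.56 times line 2. The 95% interval of the Tnfrsf21 fold was 0.563 to 2.43, which leaves both a lower and a higher level compatible with these lines. Its sign turned without sgNTC line 2 (log2 fold change -0.11).

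Of the genes beneath the receptors other than Lrdd, none passed the test. Fadd (chromosome 7, 144577318 to 144582463), the adaptor of FAS and the TRAIL receptor, had 20.9, 22.3 and 18.4 CPM in sgp53 and 17.1, 22.3 and 19.1 CPM in sgNTC. The groups overlapped, and the 95% interval of the fold was 0.845 to 1.31. Ripk1 (chromosome 13, 34002363 to 34037147), the kinase beneath TNF receptor 1, had 46.0, 54.9 and 51.3 CPM in sgp53 and 53.8, 58.0 and 56.7 CPM in sgNTC. Its groups overlapped, although each line was lower in sgp53, and the 95% interval of the fold was 0.791 to 1.03. Annotated exons of Ripk1 share 241 bases with Serpinb6a on the opposite strand, and those of Fadd share 239 bases with the antisense gene Faddos. No source used here gives the strand setting of the counting, and without strand the reads of such stretches cannot be told apart. Ripk1 exons also share 511 bases with the processed pseudogene Gm17084 on the same strand, where strand does not tell reads apart. Gm17084 has no row in the count table. Casp8 (chromosome 1, 58795374 to 58847503), the initiator protease, had 44.2, 44.4 and 39.9 CPM in sgp53 and 50.3, 54.3 and 61.7 CPM in sgNTC. These groups did not overlap. Its log2 fold change was -0.37 (SE 0.09), with an edgeR adjusted p of 0.0643. DESeq2 called Casp8 lower (adjusted p = 0.0118), and over all 14 alternatives the adjusted p lay between 0.0118 and 0.287.

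The order of the genes by level was compared per kilobase of annotated exon. In sgNTC, Tnfrsf12a led with 168 ± 3.59 CPM per kilobase (SD, n = 3), and Fas was last with 1.20 ± 0.304. Tnfrsf1a, at 38.95 ± 1.20, stood clear of its neighbours. Tnfrsf10b (23.02 ± 3.27), Eda2r (21.4 ± 3.46) and Casp8 (19.2 ± 2.00) followed, and their ranges overlapped. Lrdd (12.2 ± 0.491) and Ripk1 (6.73 ± 0.258) came next without overlap. Fadd (5.00 ± 0.672) and Tnfrsf21 (2.92 ± 1.78) overlapped each other, and Tnfrsf21 overlapped Fas. In sgp53, Eda2r held rank 9 of 10 with 0.482 ± 0.202 CPM per kilobase, against rank 4 in sgNTC, and its range overlapped that of Fas (0.212 ± 0.127). Lrdd held rank 8 with 2.44 ± 0.320 in sgp53, against rank 6 in sgNTC. Tnfrsf12a and Tnfrsf1a kept ranks 1 and 2, at 168 ± 14.3 and 33.7 ± 3.93 CPM per kilobase in sgp53.

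**Figure D3:**
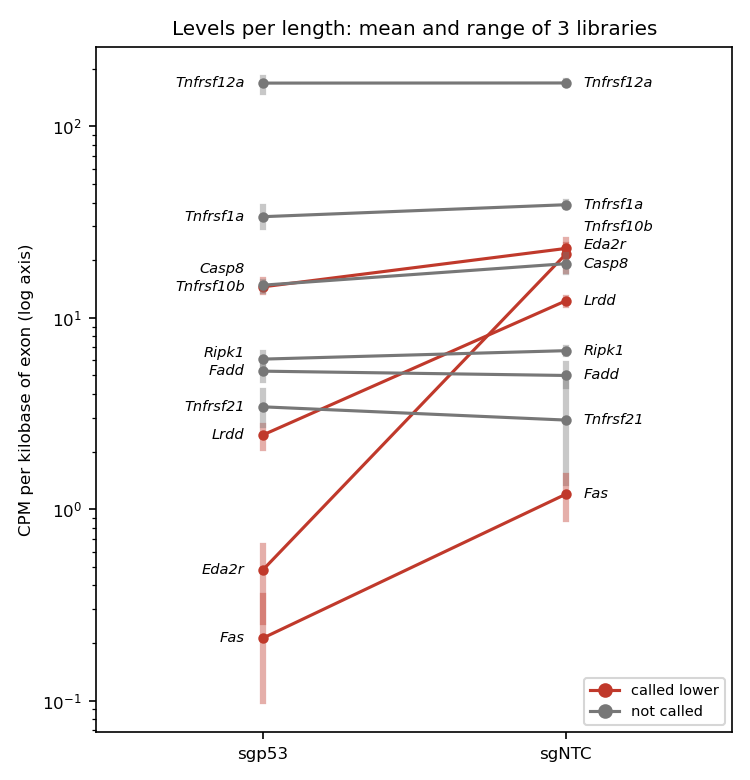
CPM per kilobase of exon (log axis) of the 10 genes in sgp53 and sgNTC; points are means, shaded bars the range of 3 libraries, and red marks genes called lower. Eda2r stands at 0.482 in sgp53 and 21.4 in sgNTC, while Tnfrsf12a stands at 168 in both.

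The genes whose levels followed each changed gene most closely were ranked by Pearson correlation of log2 CPM over the 6 libraries, among 12053 other genes with a mean of at least 1 CPM. These correlations are descriptions of 6 points in 2 separated groups. For Eda2r they were Perp, a membrane protein gene that p53 activates (r = 0.9992), and the kinase gene Map4k2 (r = 0.9991). Perp had 51.6, 52.6 and 40.3 CPM in sgp53 lines 1, 2 and 3 and 131, 145 and 145 CPM in sgNTC. Lrdd was followed by Trp53inp1, a p53 target that takes part in autophagy and cell death (r = 0.9982), and by Cdkn1a, the gene of the cell cycle inhibitor p21 (r = 0.9981). Tnfrsf10b was followed by Dusp6, a phosphatase of ERK kinases (r = 0.9961), which had 303, 257 and 276 CPM in sgp53 and 501, 399.8 and 489 CPM in sgNTC, and by Gm11110 (r = 0.9882). In Tnfrsf10b and Dusp6 alike, sgNTC line 2 was the lowest of the sgNTC libraries. The closest genes to Fas were 4921531C22Rik (r = 0.9969) and Aldh6a1, a mitochondrial dehydrogenase gene (r = 0.9943), neither of which was called (edgeR adjusted p = 0.0926 and 0.157).

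Around the 10 genes, 77 others of the pathway were examined. Of 51 tested, 2 were lower and 1 was higher in sgp53, a share near the 6.45% called among all tested genes, with a median log2 fold change of 0.01, and 26 were not tested. DESeq2 called 15 of the 51, 11 lower and 4 higher, against 18.2% of its tested genes, and edgeR with the line as a block called 1, against 2.38%.

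Ligands were scarce. Of 18 TNF family ligands, 4 had enough counts to be tested. Tnfsf9, the ligand of the costimulatory receptor 4-1BB, was lower, with 6.42, 6.34 and 6.04 CPM in sgp53 and 10.8, 14.4 and 11.4 CPM in sgNTC. Its groups did not overlap, and the log2 fold change was -0.96 (SE 0.15, edgeR adjusted p = 0.0229). That call was lost with the line as a block (edgeR adjusted p = 0.0655), without any 1 sgp53 library (0.0607 to 0.0841) and without sgNTC line 3 (0.0801). The ligands of the receptors described above were looked up after their values were seen. Fasl, the ligand of FAS, had 5 counts in all in sgp53 and 5 in sgNTC. Tnfsf10, the gene of TRAIL, had 12 and 2, and Tnf had 0 and 5. None of these 3 was tested, and levels this low allow no comparison at this depth. Tnfsf12, the gene of TWEAK, had 6.96 ± 0.844 CPM in sgp53 and 8.12 ± 0.633 CPM in sgNTC. Eda, which encodes the ligands of Eda2r and of the related receptor Edar, had 9.04 ± 0.865 CPM in sgp53 and 6.90 ± 0.372 CPM in sgNTC. Neither passed (edgeR adjusted p = 0.361 and 0.119).

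Of 22 other TNF receptor family genes, 12 were tested, of which 1 was higher and 0 lower, with a median log2 fold change of 0.21. Tnfrsf11b, the gene of osteoprotegerin, a soluble decoy receptor that binds RANKL and TRAIL, had 17, 23 and 17 counts in sgp53 lines 1, 2 and 3, against 2, 3 and 4 counts in sgNTC. The groups were far apart at a very low level, and the gene entered the test through its sgp53 libraries. Its log2 fold change was 2.55 (SE 0.40, edgeR adjusted p = 0.0234). The Tnfrsf11b call was lost with the line as a block (edgeR adjusted p = 0.0739) and without any 1 library other than sgNTC line 1 (0.0621 to 0.0854).

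Of 32 other adaptors and proximal regulators, 30 were tested, and 1 was lower and 0 higher, with a median log2 fold change of -0.02. Chuk, which encodes the kinase IKK-alpha of the NF-kappaB pathway, had 88.3, 87.0 and 79.8 CPM in sgp53 and 117, 122 and 116 CPM in sgNTC. The groups were separate and each narrow, and the log2 fold change was -0.48 (SE 0.06, edgeR adjusted p = 0.0128), and the call was lost without sgNTC line 3 (0.0631). The necroptosis genes Ripk3 and Mlkl, chosen after their values were seen, lay just outside the threshold. Ripk3, the kinase, had 71.5, 85.0 and 60.9 CPM in sgp53 and 108, 99.2 and 121 CPM in sgNTC (edgeR adjusted p = 0.055). Mlkl, the pore-forming effector, had 20.1, 31.3 and 24.1 CPM in sgp53 and 39.0, 38.0 and 42.3 CPM in sgNTC (edgeR adjusted p = 0.0614). Both had groups that did not overlap. The same held for Map3k7 (edgeR adjusted p = 0.0586) and Map3k5 (0.0722) of this list, among others, and for 36.8% of all tested genes.

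Of the caspase and Bid genes further downstream, none passed with edgeR. Casp2, the partner of PIDD1 in the PIDDosome, had 58.7 ± 3.63 CPM in sgp53 and 49.4 ± 2.96 CPM in sgNTC (log2 fold change 0.25, edgeR adjusted p = 0.0902). Every sgp53 library lay above every sgNTC library for Casp2, and DESeq2 called it higher (adjusted p = 0.0367).

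**Figure D4:**
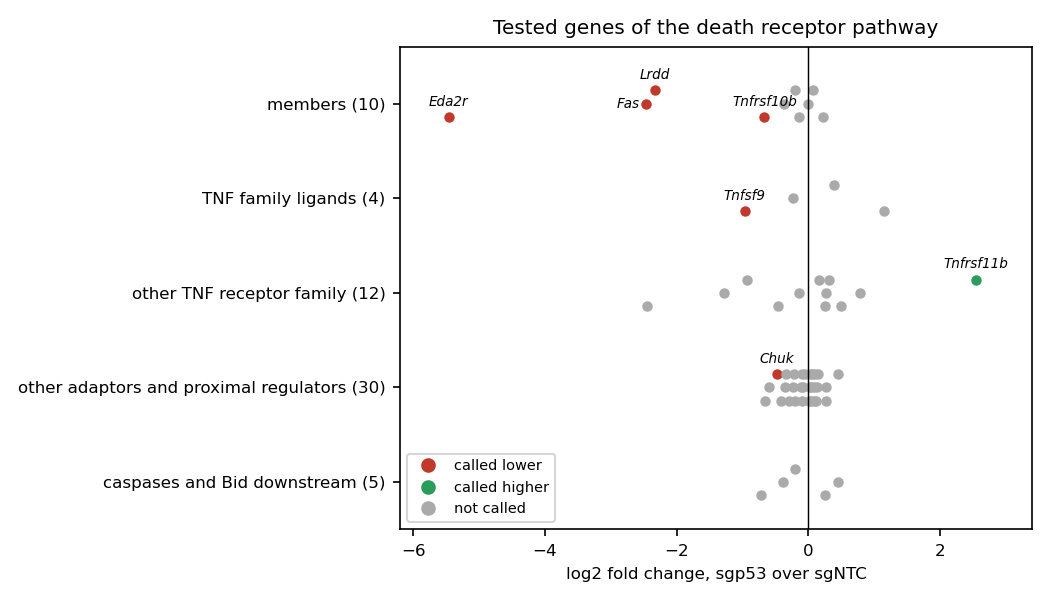
Log2 fold change of sgp53 over sgNTC (horizontal axis) for the tested genes of the 10 and of the 4 surrounding lists, with the number tested in brackets; red and green mark calls. Calls outside the 10 genes are Tnfsf9, Chuk and Tnfrsf11b, and Eda2r at -5.46 lies farthest from 0.

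**Figure D5:**
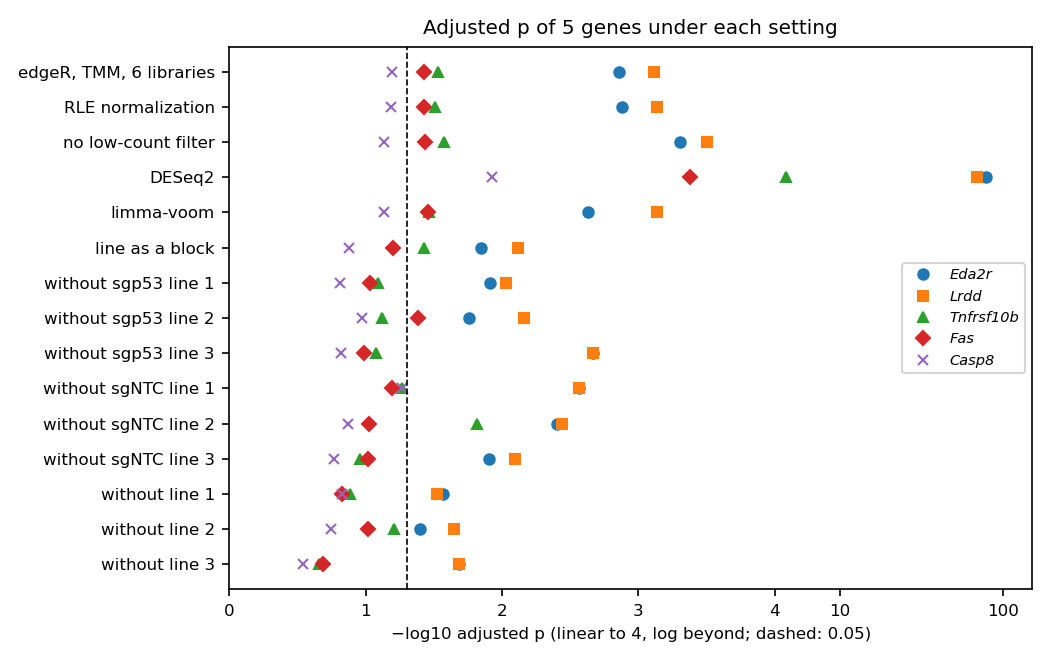
Adjusted p of Eda2r, Lrdd, Tnfrsf10b, Fas and Casp8 (horizontal axis, minus log10) under the reported test and its 14 alternatives (vertical axis); the dashed line is 0.05. Eda2r and Lrdd lie right of the line in all 15 rows, and Fas and Tnfrsf10b cross it when single libraries are left out.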

How the data were processed

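The authors deposited raw read counts per gene symbol, 1 column for each of 6 libraries, with no normalization. In the submitters' processing notes mm10, STAR, CASAVA 1.8 and DESeq2 are listed without roles, and no source used here gives the counter, the annotation or the strand setting. Per the labels' protocols, a stranded kit was used on 1 µg of RNA of integrity above 8.0. The table had 0 columns of unknown samples and 0 rows without a gene.

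Counts were tested for sgp53 over sgNTC in R 4.3.3 with the quasi-likelihood test of edgeR 4.0.16 (TMM, filterByExpr with a minimum count of 10), with Benjamini-Hochberg adjustment over all 13044 tested genes and calls under 0.05. All 10 members passed the filter. The fit had 4 residual degrees of freedom. An exact permutation test of 3 against 3 cannot go below 0.1. CPM use normalized totals, SE is the coefficient over the square root of F, and intervals are 95% intervals not adjusted for multiple genes. Differences within a line use log2 CPM with a prior count of 2. Depth limits the precision of genes with few counts.

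Both libraries of a number come from the same cell line, so the numbers pair them. Their deviations from group means correlated at 0.089 in line 1, 0.0018 in line 2 and -0.027 in line 3. Library pairs within a group differed beyond sampling noise (chi-square per degree of freedom 22.8 to 61.0). DESeq2 1.42.0, limma-voom (limma 3.58.1), RLE normalization, no filter, the line as a block, and leaving out each library or line were alternatives.

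Members and lists were chosen with earlier results of these data known. Named genes are the 10 members, Trp53, Cdkn1a and Mdm2, up to 3 called genes per list and direction of smallest adjusted p (where none was called, the 2 of highest level), and the 2 genes most correlated with each called member. Gene positions and exon lengths are from GENCODE vM21 on GRCm38, the assembly mm10 denotes, and promoters from RefSeq. The counting annotation may differ from these lengths. Some genes of these lists are not reported here by name.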

Additional observations from a re-analysis of the deposited data

How the results depend on the processing

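Over the alternatives that keep all libraries, 3 to 5 of the 10 genes were called (4 as reported), all lower. Leaving out a library or a line gave 2 to 3, and Eda2r and Lrdd were kept in each. Leaving out any whole line lost both Fas (edgeR adjusted p = 0.0958 to 0.205) and Tnfrsf10b (0.0623 to 0.219). The replicate block, with the line as a block, left 3 of the 10 called and changed no call of the 10 but that of Fas. Over all genes 841 were called, against 311 with the line as a block, 2367 by DESeq2 and 19 to 700 with libraries or lines left out. Of the 77 other pathway genes 3 were called, against 1 with the line as a block, 15 by DESeq2 and 0 to 3 with libraries or lines left out. Leaving out a line lost all 3 and lost the call of Trp53. Signs turned for 3 genes that were not called. The log2 fold change of Tnfrsf12a was -0.0022 as reported, 0.0054 with RLE normalization, 0.0053 by DESeq2 and -0.0570 to 0.0939 with libraries or lines left out. With libraries or lines left out, that of Tnfrsf21 was -0.11 to 0.81 and that of Fadd -0.0219 to 0.183. The cause of these shifts was not tested. Leaving out a library or line also leaves fewer samples. Fas and Tnfrsf11b rest on few counts, with 43 counts of Fas over the sgp53 libraries and 9 of Tnfrsf11b over the sgNTC libraries, so the precision of both is limited by depth.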
